A study of Mus musculus with 17 samples.

Results

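The 10 genes described here, Atf4, Ddit3, Trib3, Asns, Psat1, Phgdh, Slc7a11, Chac1, Ddit4 and Sesn2, belong to the transcriptional programme that the factor ATF4 drives when amino acids run short. They were taken by gene name from the tables of mouse fetal liver cells that make only the short form of GATA1 (Gata1s), in which 47069 genes were counted, and were followed by Ensembl gene ID through all 3 count tables of the series. RNA was sequenced from 17 libraries in 6 groups. The study raised or lowered Arid3a, a transcription factor of the megakaryocytic lineage, and raised miR-125b, a microRNA encoded on human chromosome 21.

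Donor embryos were between E12.5 and E13.5 in age. Every group was of one B6J.129(Cg) mouse strain, whose Gt(ROSA)26Sor locus holds Cas9 and EGFP under the CAG promoter. The 14 Gata1s libraries all carry the guide transgene sgGata1 and had doxycycline at 1 µg/mL, so their controls share that edit and that drug. In the overexpression table the second transgene was LUC (3 libraries) or Arid3a (3 libraries), and doxycycline was given for 48 h. In the hairpin table it was sh-ctrl (3 libraries), shArid3a (2 libraries, replicates 1 and 3) or miR-125b (3 libraries), and doxycycline was given for 10 days. The WT table holds 3 libraries with the transgenes sgLuc and shLuc and no doxycycline. The labels name neither the promoter of any second transgene nor whether a line is 1 clone, and do not say whether replicates are separate embryos or cultures, so each p-value measures only the spread between these libraries.

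ATF4 is a bZIP transcription factor at the centre of the integrated stress response. Kinases that sense uncharged tRNA, misfolded protein, double-stranded RNA or lack of haem phosphorylate the initiation factor eIF2, which slows most translation while upstream reading frames let ribosomes reach the Atf4 coding sequence. Atf4 messenger RNA therefore does not show how much ATF4 protein is made. ATF4 then raises genes that supply amino acids, such as asparagine synthetase and the serine synthesis enzymes, together with feedback and death genes such as Trib3, Ddit3 and Chac1. In blood formation the haem-sensing arm of this response is known for protecting red cell precursors.

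ATF4 binds a C/EBP-ATF response element, TGATGNAA. The letters were searched on both strands of RefSeq promoter windows running from 250 bases before to 50 bases after each start site (build GRCm38.p6). Of 32851 windows, 3.97% held the motif. By gene, 4.51% of 27025 genes had a window with it, and 4 of the 10 genes did. They are shown because the described genes share this factor as their known regulator. Each window below reads 5′ to 3′ on the strand of its gene, and the capitals mark the match, which reads in reverse complement where it lies on the opposite strand. The 5 matches do not overlap one another.
Trib3, opposite strand, bases 14 to 21 after the start site, chr2:152344039-152344046: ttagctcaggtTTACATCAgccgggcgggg
Asns, same strand, bases -23 to -16, chr6:7693225-7693232: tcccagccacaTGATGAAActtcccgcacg
Slc7a11, same strand, bases -66 to -59, chr3:50443672-50443679: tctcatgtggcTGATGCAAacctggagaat
Slc7a11, opposite strand, bases -47 to -40, chr3:50443653-50443660: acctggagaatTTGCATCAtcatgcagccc
Chac1, opposite strand, bases -193 to -186, chr2:119351049-119351056: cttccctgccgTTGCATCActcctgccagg
The windows of Atf4, Ddit3, Psat1, Phgdh, Ddit4 and Sesn2 did not hold these letters. A match describes the letters only.

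The microRNA raised in one group is shown with its seed, bases 2 to 8, in capitals.
miR-125b-5p: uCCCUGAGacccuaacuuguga

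Library totals were 31339238 to 40859301 counts in the Gata1s libraries and 16362439 to 19212193 in WT. Levels below are CPM, the count of a gene scaled to a common library size, after TMM scaling of all 17 libraries together over 46880 shared genes. Arid3a itself stood at 62.1 ± 2.68 CPM in LUC (SD, n = 3) and at 65.7 ± 11.1 CPM in the libraries labelled Arid3a (n = 3), a log2 difference of 0.08 that did not pass the test (adjusted p = 0.737), so the counts do not show the labelled overexpression. Whether the counted reads would include RNA of the transgene is not given in the sources used here. It fell by 1.43 on the log2 scale in shArid3a (adjusted p = 0.0368) and by 2.56 in miR-125b (adjusted p = 0.000282), each against sh-ctrl. The hairpin's call on Arid3a was lost without sh-ctrl replicate 2 or 3, without either shArid3a library, or without ribosomal RNA-like genes, at log2 differences of -1.37 to -1.48 and adjusted p of 0.0523 to 0.461. Gata1, whose edit shortens the protein, stood at 66.6 ± 6.04 CPM in WT (SD, n = 3) and at group means of 259 to 475 CPM in the Gata1s groups, and was called in none of the 4 comparisons (adjusted p 0.162 to 0.736). Myeloid markers summed to 10650 to 12840 CPM in the WT libraries and to 9.04 to 184 CPM in the Gata1s libraries. Megakaryocyte markers summed to 882 to 1127 CPM in WT and to 2216 to 4858 CPM in the Gata1s libraries. Pf4 and Itga2b carried most of that sum, while Ppbp and Vwf of the same list went the other way, at group means of 70.6 and 63.0 CPM in WT and of at most 28.8 and 16.4 CPM in the Gata1s groups. Hepatocyte markers summed to at most 5.59 CPM in any library, with Alb at 0 in WT, shArid3a and miR-125b.

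All 10 genes passed the filter on low counts in every comparison. Set per kilobase of gene length, so that genes can be compared, Atf4 was the most abundant of them in every group, with group means from 170 CPM per kb in the libraries labelled Arid3a to 304 CPM per kb in shArid3a. The group means of Phgdh ran from 102 to 203 CPM per kb, those of Psat1 from 67.4 to 101 and those of Asns from 39.0 to 149 CPM per kb. Slc7a11 lay at 1.11 to 3.07 CPM per kb and Chac1 at 1.49 to 10.52 CPM per kb. The plot of levels by library shows all 10.

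**Figure D1:**
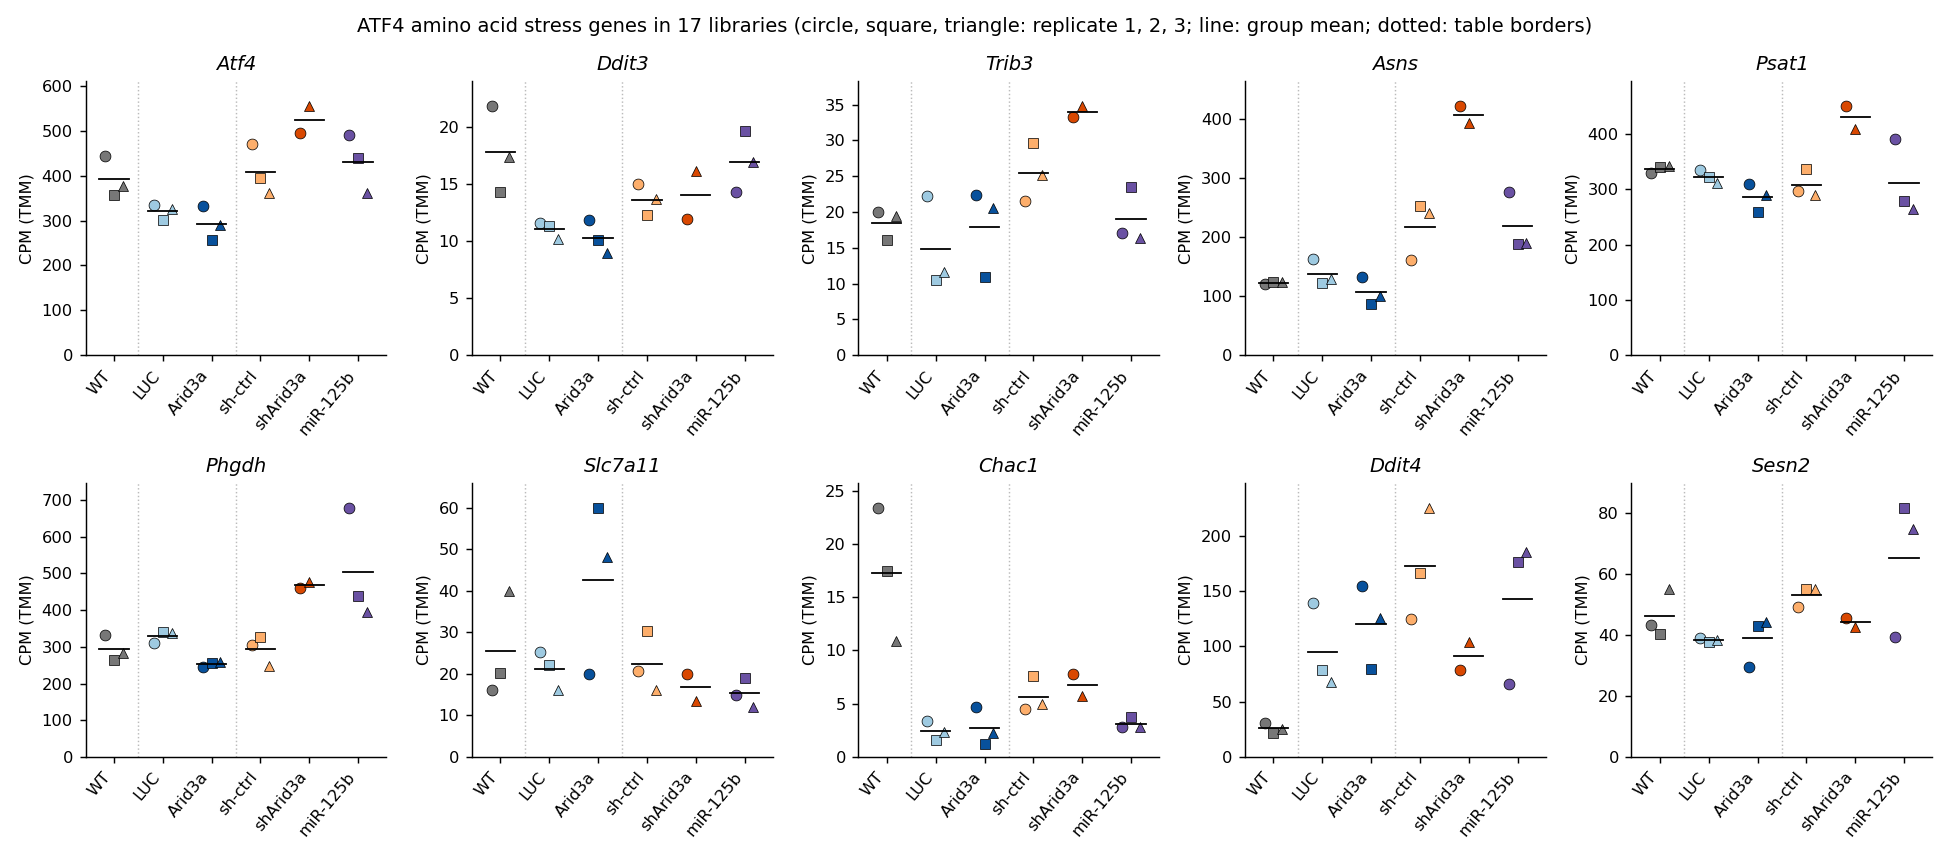
Level of each of the 10 genes (vertical axis, CPM after TMM scaling over all 17 libraries) in the 6 groups (horizontal axis); a circle, square or triangle is replicate 1, 2 or 3, a horizontal line is the group mean, and dotted lines separate the 3 count tables. Asns in the shArid3a libraries (394 and 423 CPM) and Chac1 in the WT libraries (10.9 to 23.4 CPM) lie above every other library.

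Atf4 (chr15:80255184-80257540, mm10) encodes the factor itself. Its level was 335, 300.4 and 326 CPM in LUC, 333, 257 and 290.2 CPM in the libraries labelled Arid3a, 471, 396 and 361 CPM in sh-ctrl, 494 and 555 CPM in shArid3a, 490, 439 and 360.5 CPM in miR-125b, and 444, 358 and 377.5 CPM in WT, replicates in number order. After TMM scaling both shArid3a libraries lay above all 15 others. With library totals alone they stood at 442 and 448 CPM, below sh-ctrl replicate 1 (453 CPM) and WT replicate 1 (495 CPM). By group mean after TMM scaling the order ran from the libraries labelled Arid3a through LUC, WT, sh-ctrl and miR-125b to shArid3a. Of the neighbours in that order, LUC and WT did not overlap and neither did miR-125b and shArid3a.

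Ddit3 and Trib3 sit just below ATF4. Ddit3 (chr10:127290774-127296288) encodes CHOP, a stress-induced bZIP factor that promotes cell death. It stood at 11.5, 11.3 and 10.2 CPM in LUC, at 11.8, 10.1 and 8.95 CPM in the libraries labelled Arid3a, at 14.97, 12.2 and 13.6 CPM in sh-ctrl, at 11.9 and 16.1 CPM in shArid3a, at 14.2, 19.6 and 16.9 CPM in miR-125b, and at 21.8, 14.3 and 17.3 CPM in WT. The 3 groups of the hairpin table overlapped one another, and so did LUC and the libraries labelled Arid3a. The gene overlaps 3 annotated entries, Mars on the other strand, Gm4189 and another entry named Ddit3. Psat1 (1 entry), Slc7a11 (5) and Sesn2 (1) also overlap annotated entries. The sources used here do not say whether reads were counted by strand, so a read in shared bases cannot be given to either gene.

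Trib3 (chr2:152337422-152344032) encodes a pseudokinase that binds ATF4 and holds its output down. Its level was 22.3, 10.6 and 11.6 CPM in LUC, 22.4, 10.9 and 20.6 CPM in the libraries labelled Arid3a, 21.5, 29.6 and 25.1 CPM in sh-ctrl, 33.3 and 34.8 CPM in shArid3a, 17.1, 23.6 and 16.4 CPM in miR-125b, and 20, 16.1 and 19.4 CPM in WT. After TMM scaling both shArid3a libraries again lay above all others, while the remaining groups overlapped their neighbours in the order of means. With library totals alone shArid3a replicate 3 (28.1 CPM) lay below sh-ctrl replicate 2 (29.0 CPM).

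Asns, Psat1 and Phgdh encode enzymes that make amino acids. Asns (chr6:7675169-7693254) makes asparagine and is a classical ATF4 target. It stood at 163, 122 and 129 CPM in LUC, 133, 86.1 and 101 CPM in the libraries labelled Arid3a, 161, 254 and 240.7 CPM in sh-ctrl, 423 and 394 CPM in shArid3a, 278, 189 and 190.5 CPM in miR-125b, and 121.5, 123.5 and 124 CPM in WT. The shArid3a libraries lay above all others, and this was the one step in the order of group means at which neighbours did not overlap.

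Phgdh (chr3:98313170-98339990) catalyses the first step of serine synthesis from glycolysis. Its level was 309, 340.5 and 339 CPM in LUC, 246, 256 and 258 CPM in the libraries labelled Arid3a, 305, 327 and 248 CPM in sh-ctrl, 461 and 476 CPM in shArid3a, 679, 439 and 394 CPM in miR-125b, and 331, 264 and 284 CPM in WT. After TMM scaling all 5 libraries of shArid3a and miR-125b lay above the 12 others. The 3 libraries labelled Arid3a lay below every LUC and every WT library, with the sh-ctrl library of replicate 3 among them at 248 CPM. With library totals alone miR-125b replicate 3 (345 CPM) lay below WT replicate 1 (369 CPM) and LUC replicate 3 (364 CPM).

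Psat1 (chr19:15904678-15947337), the aminotransferase of the next step, had the narrowest range of these enzymes. It stood at 335, 323 and 312 CPM in LUC, 310.5, 259.7 and 290.2 CPM in the libraries labelled Arid3a, 296.5, 336.5 and 289 CPM in sh-ctrl, 451 and 409.9 CPM in shArid3a, 391, 279 and 265 CPM in miR-125b, and 329.7, 341 and 343 CPM in WT. After TMM scaling the shArid3a libraries were the highest and the miR-125b library of replicate 1 came next. With library totals alone shArid3a replicate 3 (331 CPM) lay below every WT library (368 to 395 CPM) and every LUC library (335 to 357 CPM).

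Slc7a11 and Chac1 act on cystine and glutathione. Slc7a11 (chr3:49892526-50443614) is the cystine importer that feeds glutathione synthesis. It stood at 25.3, 22.0 and 16.2 CPM in LUC, 20.05, 60.0 and 48.1 CPM in the libraries labelled Arid3a, 20.8, 30.3 and 16.2 CPM in sh-ctrl, 20.1 and 13.5 CPM in shArid3a, 15.03, 19.1 and 12.1 CPM in miR-125b, and 16.1, 20.1 and 39.99 CPM in WT. Replicates 2 and 3 of the libraries labelled Arid3a lay above all others, but replicate 1 lay within LUC, and no neighbours in the order of means were separate.

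Chac1 (chr2:119351229-119354381) breaks glutathione down and is among the genes most sensitive to ATF4 and CHOP. Its level was 3.37, 1.59 and 2.37 CPM in LUC, 4.69, 1.18 and 2.23 CPM in the libraries labelled Arid3a, 4.48, 7.61 and 4.93 CPM in sh-ctrl, 7.76 and 5.76 CPM in shArid3a, 2.78, 3.76 and 2.77 CPM in miR-125b, and 23.4, 17.4 and 10.9 CPM in WT. The 3 miR-125b libraries lay below all sh-ctrl and shArid3a libraries.

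Ddit4 and Sesn2 encode brakes on the growth kinase mTORC1. Ddit4 (chr10:59949675-59951770), also induced by low oxygen and glucocorticoids, stood at 139, 78.7 and 67.6 CPM in LUC, 154.9, 79.2 and 126 CPM in the libraries labelled Arid3a, 124.6, 167 and 225 CPM in sh-ctrl, 78.2 and 104 CPM in shArid3a, 66.0, 176 and 185 CPM in miR-125b, and 30.9, 22.1 and 25.1 CPM in WT. The shArid3a libraries lay below all sh-ctrl libraries, and the miR-125b library of replicate 1 was the lowest of the 14 Gata1s libraries.

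Sesn2 (chr4:132492032-132510501) encodes a leucine sensor. Its level was 38.9, 37.7 and 38.3 CPM in LUC, 29.6, 42.7 and 44.1 CPM in the libraries labelled Arid3a, 49.3, 55.2 and 55.1 CPM in sh-ctrl, 45.4 and 42.7 CPM in shArid3a, 39.3, 81.7 and 74.7 CPM in miR-125b, and 43.2, 40.2 and 54.97 CPM in WT. The miR-125b libraries of replicates 2 and 3 were the highest of all, and replicate 1 lay below sh-ctrl.

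WT was set beside the 14 Gata1s libraries without a test, because genotype, doxycycline, the second transgene and the table change together and cannot be told apart. Chac1 was the one gene of the 10 whose WT libraries all lay above the Gata1s libraries, at 10.9 to 23.4 against 1.18 to 7.76 CPM. Ddit4 was the one whose WT libraries all lay below, at 22.1 to 30.9 against 66.0 to 225 CPM. The other 8 overlapped, and all of this also held with CPM taken from library totals alone. In bulk RNA, fewer cells of one type and less RNA per cell cannot be told apart, and the myeloid and megakaryocyte marker sums given above moved with this contrast. Their part in these levels was not tested.

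The libraries with the Arid3a hairpin had higher levels of the amino acid enzymes Asns, Phgdh and Psat1 than sh-ctrl and lower levels of Ddit4, but no gene of the 10 passed the test. The log2 difference was 0.88 for Asns (SE 0.22, adjusted p = 0.101). It was 0.65 for Phgdh (SE 0.22, adjusted p = 0.125) and 0.46 for Psat1 (SE 0.18, adjusted p = 0.153). For Ddit4 it was -0.94 (SE 0.39, adjusted p = 0.17). Those 4 had an unadjusted p under 0.05, against 25.8% of all genes tested. Among the cell markers, mast cell and basophil genes summed to 729 and 1158 CPM in shArid3a and to 468 to 526 CPM in sh-ctrl, most of it Gzmb. The megakaryocyte markers Itga2b, Vwf and Gp6 lay lower in shArid3a without overlap (adjusted p 0.101 to 0.102). The part of these markers in the differences was not tested.

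Tests were edgeR quasi-likelihood tests over all genes of a table, with Benjamini-Hochberg adjustment and a gene called at an adjusted p under 0.05. In this comparison 0.0857% of 14004 genes were called, 12 in all (0.05% higher and 0.0357% lower), and 0 of the 10. DESeq2 called 1 of them, Asns, in a fit that called 1326 genes. After TMM scaling the groups did not overlap for 7 of the 10, 5 higher (Atf4, Trib3, Asns, Psat1 and Phgdh) and 2 lower (Ddit4 and Sesn2). With library totals alone Atf4 and Trib3 overlapped. Among all genes 44.2% did not overlap, 22.9% higher and 21.3% lower. The median log2 difference was 0.28 over the 10 genes and -0.02 over all genes tested.

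The factor and its partner in feedback gave smaller values here. Atf4 differed by 0.34 on the log2 scale (SE 0.17, adjusted p = 0.244) and Trib3 by 0.40 (SE 0.21, adjusted p = 0.26). Ddit3 differed by 0.02 (SE 0.23, adjusted p = 0.969) and its value turned to -0.18 with library totals alone, a scaling that moved the median of all genes to -0.22. Chac1 gave 0.23 (SE 0.34, adjusted p = 0.696), Slc7a11 -0.44 (SE 0.32, adjusted p = 0.404) and Sesn2 -0.29 (SE 0.26, adjusted p = 0.5).

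Raising miR-125b gave a higher Phgdh and no call in the other 9 genes. Phgdh rose by 0.76 on the log2 scale against sh-ctrl (SE 0.20, adjusted p = 0.0251), from 293 ± 41.0 to 504 ± 153 CPM (SD, n = 3 each), and all 3 miR-125b libraries lay above all 3 sh-ctrl libraries. That is 1 gene of 10, where 24.4% of 14004 genes were called, 12.1% higher and 12.2% lower. The call was kept in 10 of 13 alternative settings and was lost without sh-ctrl replicate 1, sh-ctrl replicate 3 or miR-125b replicate 1, over a range of adjusted p from 0.0012 to 0.105. The miR-125b library of replicate 1, the highest in Phgdh, also had the highest summed mast cell and basophil markers, at 1451 CPM, against 900.0 and 499.6 CPM in replicates 2 and 3 and 468 to 526 CPM in sh-ctrl. Gzmb carried most of these sums, at 477 to 1151 CPM in miR-125b and 463 to 495.5 CPM in sh-ctrl. The mitochondrial share of counts was 1.89 to 2.46% in miR-125b and 2.53 to 4.54% in sh-ctrl, with 4.54% and 4.34% in sh-ctrl replicates 1 and 3. The part of the markers and of the mitochondrial share in the Phgdh level was not tested.

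Psat1 and Asns, the enzymes that stood beside Phgdh in the hairpin libraries, were near sh-ctrl here. The log2 difference of Psat1 was -0.00067 (SE 0.16, adjusted p = 0.999) and that of Asns -0.01 (SE 0.20, adjusted p = 0.966). Both sh-ctrl comparisons use the same 3 sh-ctrl libraries, so their values are not independent of each other. The median log2 difference was -0.01 over the 10 genes and -0.03 over all genes.

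Chac1 was the gene with the lowest value in miR-125b against sh-ctrl, at -0.89 (SE 0.31, adjusted p = 0.0615), without overlap between the groups. The labels do not say what libraries of one replicate number share. In the fit with the replicate block Chac1 passed the test at -0.87 (adjusted p = 0.0414). It also passed with library totals alone and with DESeq2, the adjusted p over all 13 alternatives running from 0.0245 to 0.184. Slc7a11 stood at -0.57 (SE 0.28, adjusted p = 0.159) with overlapping groups, and at -0.54 in the blocked fit (adjusted p = 0.0457). The blocked fit therefore called 3 of the 10 genes, in place of 1, and 18 of the 83 list genes described below, in place of 15. The 24.4% of all genes called belongs to the fit without the block, and the share for the blocked fit is not given here. Groups did not overlap for 2 of the 10, Phgdh higher and Chac1 lower, against 45.2% of all genes (23.1% higher and 22.1% lower), and 3 of the 10 had an unadjusted p under 0.05, against 39.8% of all genes.

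Trib3 stood at -0.44 (SE 0.19, adjusted p = 0.116), Ddit4 at -0.29 (SE 0.34, adjusted p = 0.561), Ddit3 at 0.29 (SE 0.21, adjusted p = 0.31) and Atf4 at 0.05 (SE 0.15, adjusted p = 0.834) in miR-125b against sh-ctrl. Atf4 turned to -0.14 with library totals alone. Sesn2 stood at 0.28 (SE 0.23, adjusted p = 0.397). Without the miR-125b library of replicate 1 it passed the test at 0.54 (adjusted p = 0.0338), and Ddit4 then stood at 0.05. That library thus had the highest Asns, Psat1 and Phgdh and the lowest Ddit4 and Sesn2 of its group, as the map of libraries shows.

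**Figure D2:**
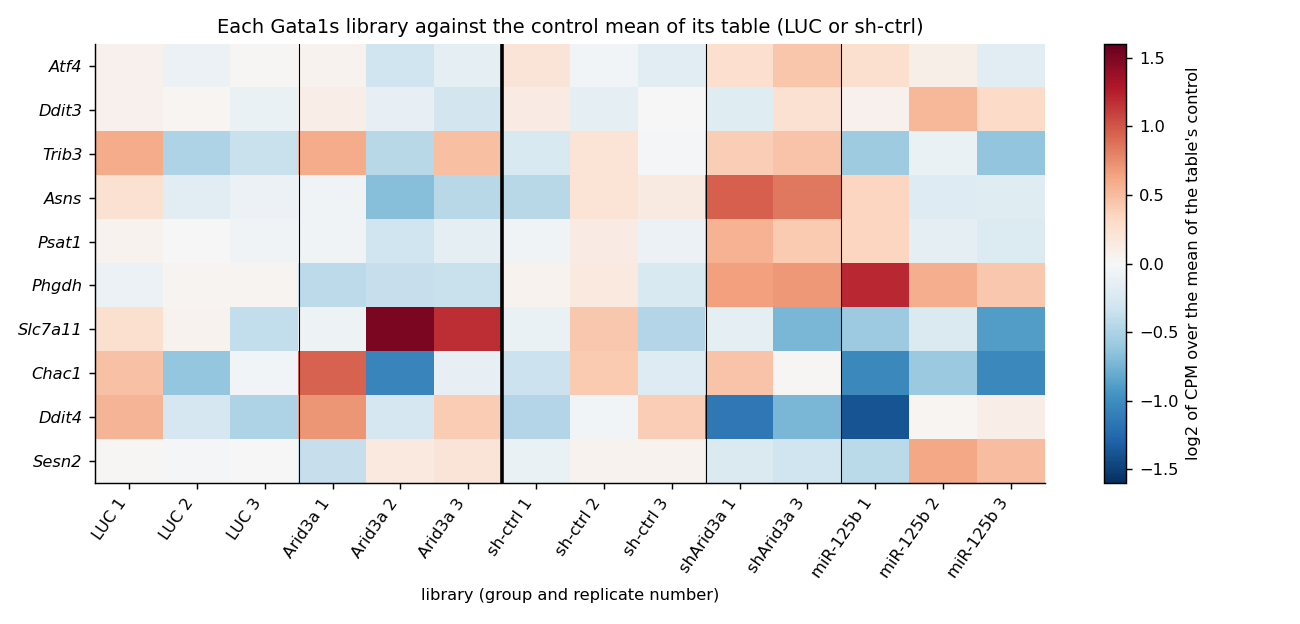
Log2 of each Gata1s library's CPM over the control mean of its table (LUC or sh-ctrl), with genes in rows and libraries, named by group and replicate, in columns; red is above and blue below the control mean, and the thick line separates the 2 tables. The miR-125b library of replicate 1 is the reddest for Phgdh and the bluest for Ddit4, and replicates 2 and 3 of the libraries labelled Arid3a are the reddest for Slc7a11.

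Set directly against shArid3a, miR-125b had lower Asns, Trib3, Chac1, Psat1 and Atf4, with no overlap between the groups for these 5, and none passed the test. The log2 difference was -0.90 for Asns (SE 0.22, adjusted p = 0.0861). It was -0.84 for Trib3 (SE 0.21, adjusted p = 0.0896), -1.12 for Chac1 (SE 0.34, adjusted p = 0.151), -0.47 for Psat1 (SE 0.18, adjusted p = 0.272) and -0.29 for Atf4 (SE 0.17, adjusted p = 0.492). Of all genes 1.35% were called (0.664% higher and 0.686% lower), and 29.5% did not overlap, 13.7% higher and 15.8% lower. DESeq2 called 3 of the 10, Trib3, Asns and Chac1, in a fit that called 741 genes. In the edgeR fit 4 of the 10 had an unadjusted p under 0.05, against 14.5% of all genes.

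The log2 difference of Phgdh between miR-125b and shArid3a was 0.11 (SE 0.23, adjusted p = 0.887). Ddit4 stood at 0.65 (SE 0.39, adjusted p = 0.487) and Sesn2 at 0.57 (SE 0.26, adjusted p = 0.351). Ddit3 gave 0.28 (SE 0.23, adjusted p = 0.646) and Slc7a11 -0.13 (SE 0.31, adjusted p = 0.905). Without the miR-125b library of replicate 1, Asns and Sesn2 were called. The median over the 10 genes was -0.21, and that over all genes -0.01.

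In the libraries labelled Arid3a, where Arid3a mRNA itself was at the LUC level, the serine enzymes Phgdh and Psat1 lay below LUC without overlap and Slc7a11 had the highest log2 difference of the 10. None of the 10 was called, and 0 of 13495 genes were (0%), while 2885 genes (21.4%) had an unadjusted p under 0.05. Phgdh stood at -0.38 (SE 0.06, adjusted p = 0.0774), with 253 ± 6.36 CPM against 329.5 ± 17.7 CPM in LUC (SD, n = 3 each), and ranked 89 by p among all genes. Slc7a11 stood at 1.01 (SE 0.37, adjusted p = 0.179) with overlapping groups. DESeq2 called 1 of the 10, Phgdh, among 1201 genes.

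The other 8 genes gave values between -0.37 for Asns (SE 0.18, adjusted p = 0.289) and 0.34 for Ddit4 (SE 0.33, adjusted p = 0.582). Psat1 stood at -0.17 (SE 0.08, adjusted p = 0.293), Atf4 at -0.12 (SE 0.11, adjusted p = 0.544) and Trib3 at 0.28 (SE 0.36, adjusted p = 0.688). The library of replicate 1 labelled Arid3a stood apart. Without it 4 of the 10 were called, Asns, Psat1 and Phgdh lower and Slc7a11 higher, in a fit that called 3198 genes. Non-overlap held for 2 of the 10 genes, both lower, against 27.6% of all genes (12.4% higher and 15.2% lower), and the median was -0.04 over the 10 and 0.01 over all genes.

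**Figure D3:**
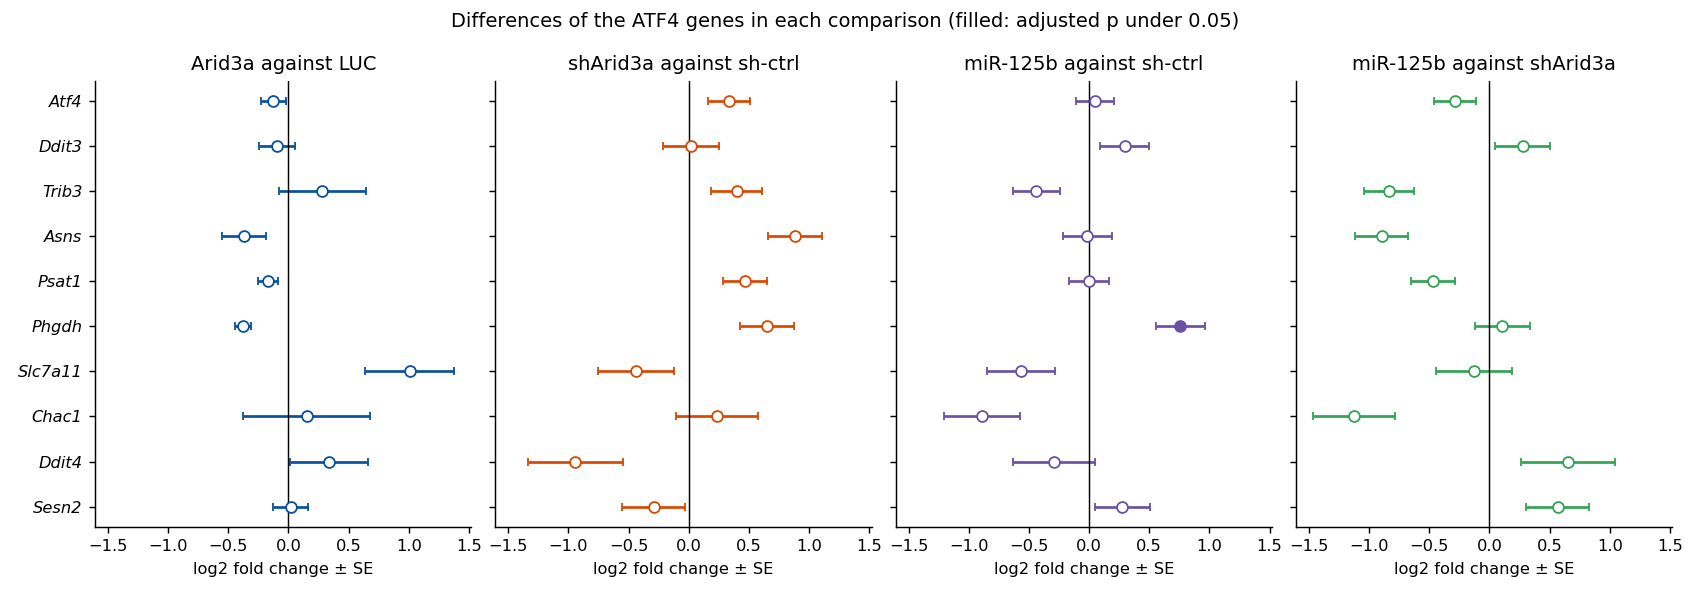
Log2 fold change (horizontal axis, with its standard error) of each of the 10 genes in the 4 comparisons, from the edgeR fit; a filled point has an adjusted p under 0.05. Phgdh in miR-125b against sh-ctrl, at 0.76, is the one filled point.

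Around the 10 genes, 86 further genes of the pathway were read from 8 lists. In shArid3a against sh-ctrl 83 were tested and 0 called; 21 had an unadjusted p under 0.05, a share close to the 25.8% of all genes. DESeq2 called 6 and edgeR without the low-count filter 7. In the list of cytosolic tRNA synthetases, which load tRNA with amino acids, and the tRNA exporter Xpot, 14 of 14 genes had a positive value. Their median was 0.37, and 10 of them were higher without overlap, against 22.9% of all genes. Lars, for leucine, gave 0.53 (adjusted p = 0.112), Cars, for cysteine, 0.45 (adjusted p = 0.118), Mars, for methionine, 0.47 (adjusted p = 0.12) and Tars, for threonine, 0.47 (adjusted p = 0.122). With library totals alone 12 of the 14 were positive, with a median of 0.17, and 12 were positive without sh-ctrl replicate 1 and without shArid3a replicate 1.

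Enzymes of serine, glycine, proline and one-carbon metabolism were positive in 11 of 12 in that comparison, with a median of 0.49. Of the 12, 9 were positive with library totals alone (median 0.30) and 9 without shArid3a replicate 1 (median 0.32). Cth, which makes cysteine from cystathionine, gave 0.87 (adjusted p = 0.109), Psph, the last step of serine synthesis, 0.78 (adjusted p = 0.137) and Shmt1, which turns serine into glycine, 0.59 (adjusted p = 0.141). Cbs averaged 0.579 CPM in shArid3a and 0.0924 CPM in sh-ctrl. Atf5, a bZIP factor also controlled through eIF2, gave 1.14 (adjusted p = 0.0989), and Slc3a2, the partner chain of Slc7a11, 0.39 (adjusted p = 0.146). On the sensing side, the list of eIF2 kinases, phosphatase subunits and the eIF2 subunit Eif2s1 had 5 negative and 2 positive values of 7. Its median was -0.39 (-0.22 without shArid3a replicate 3 and -0.56 without replicate 1). In this list Eif2ak2, the kinase for double-stranded RNA, gave -0.79 (adjusted p = 0.107) and Ppp1r15a, which recruits the phosphatase, -0.81 (adjusted p = 0.12).

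With miR-125b against sh-ctrl, 15 of 83 list genes were called (18.1%, against 24.4% of all genes), 4 higher and 11 lower (2 and 14 with library totals alone). The eIF2 list held 4 of the calls, all lower. Ppp1r15b, which keeps the phosphatase on eIF2 at rest, fell by 0.52 on the log2 scale (adjusted p = 0.02). Eif2ak2 fell by 0.78 (adjusted p = 0.0252), Eif2ak4, the kinase for uncharged tRNA, by 0.67 (adjusted p = 0.0354) and Eif2ak3, the kinase of the endoplasmic reticulum, by 0.66 (adjusted p = 0.0379). All 4 calls were lost without sh-ctrl replicate 3 and also without miR-125b replicate 1. Eif2ak2 was also lost without replicate 2 of sh-ctrl or replicate 3 of miR-125b, and Eif2ak3 and Eif2ak4 without replicate 1 of sh-ctrl or replicate 2 or 3 of miR-125b.

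The calls of that comparison that were kept in all 13 alternative settings were Vegfa, a growth factor of vessels, which fell by 2.52 on the log2 scale (adjusted p = 0.00465), and Vldlr, a lipoprotein receptor, which fell by 1.39 (adjusted p = 0.00609). Psph rose by 0.96 (adjusted p = 0.0259) and Aars, the alanine tRNA synthetase, by 0.46 (adjusted p = 0.0494). Nupr1, a stress co-regulator, fell by 1.67 (adjusted p = 0.0307), from 2.41 to 0.771 CPM. Of the transporters, the glycine carrier Slc6a9 fell by 1.48 (adjusted p = 0.0346) and the carrier of large neutral amino acids Slc43a1 rose by 0.54 (adjusted p = 0.0354).

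In the endoplasmic reticulum list, the sensors Ern1 and Atf6 fell by 1.17 (adjusted p = 0.0291) and by 0.63 (adjusted p = 0.0446), Xbp1, the factor of the unfolded protein response, fell by 0.38 (adjusted p = 0.043, and 0.0556 with the replicate block), and Creld2, a chaperone-like protein, rose by 0.86 (adjusted p = 0.013). No gene of the NRF2 and glutathione list was called by edgeR, and 1 of its 10 had an unadjusted p under 0.05. The block added 4 list calls, Atf5 (0.72, adjusted p = 0.015), Shmt1 (0.61, adjusted p = 0.0297), Mthfd1 (0.57, adjusted p = 0.022) and Pycr1 (-1.26, adjusted p = 0.0151). Without sh-ctrl replicate 3 the calls over all lists numbered 2 in place of 15, Vegfa and Vldlr, and without miR-125b replicate 1 they numbered 7. Slc43a1, Xbp1 and Atf6 were lost whichever of the 6 libraries was left out, and Aars in each case but sh-ctrl replicate 2. Slc43a1 was also lost with library totals alone, and Aars with library totals alone, with only the compared groups and without ribosomal RNA-like genes. Nupr1 was also lost without replicate 1 of sh-ctrl or replicate 2 or 3 of miR-125b, Slc6a9 without replicate 1 or 2 of sh-ctrl or replicate 2 or 3 of miR-125b, Ern1 without replicate 2 of sh-ctrl or replicate 1 or 3 of miR-125b, and Psph without replicate 2 of sh-ctrl or replicate 1 of miR-125b. Erythroid markers summed to 377 to 417 CPM in miR-125b and 580 to 873 CPM in sh-ctrl, and myeloid markers to 100.3 to 184 and 60.9 to 113 CPM. Tfrc was the largest erythroid marker by group mean, at 188 CPM in miR-125b and 241 CPM in sh-ctrl. Hbb-bs averaged 48.1 CPM in miR-125b and 221 CPM in sh-ctrl, while Epor was higher without overlap, at 52.9 to 64.1 against 45.9 to 49.4 CPM. Mpo averaged 46.5 against 0.218 CPM, while Prtn3, the largest myeloid marker by group mean in both groups, averaged 70.6 against 76.6 CPM. Megakaryocyte markers summed to 3104 to 3958 CPM in miR-125b and 3033 to 4858 CPM in sh-ctrl. Of these 8 markers, 4 were called lower (Itga2b, Gp1ba, Vwf and Gp6) and 0 higher, against 12.2% of all genes called lower. Of the 8, 3 had a positive value. The part of the markers in these calls was not tested.

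**Figure D4:**
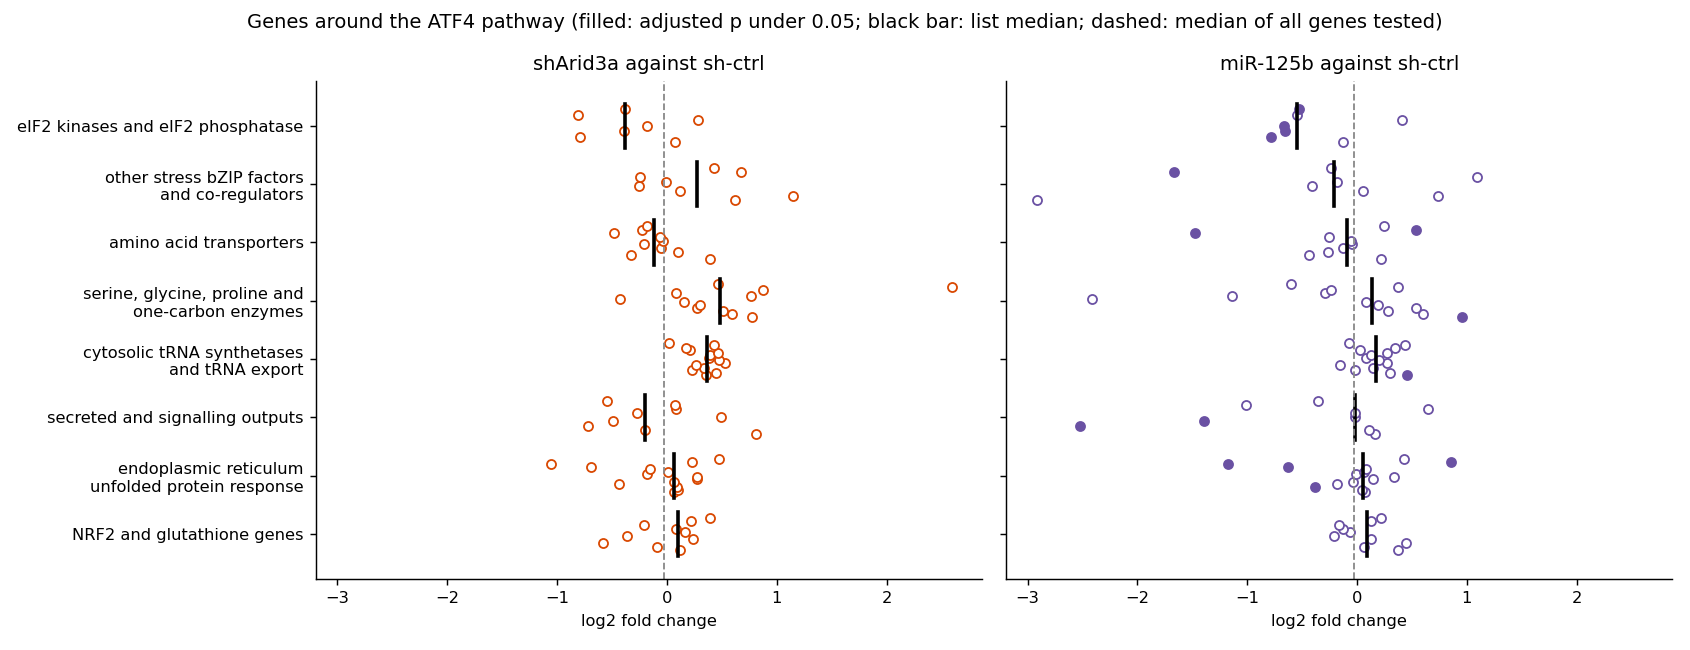
Log2 fold change (horizontal axis) of the genes in 8 pathway lists, in shArid3a and in miR-125b against the same sh-ctrl libraries; each point is a gene, filled where its adjusted p is under 0.05, a black bar is the list's median and a dashed line the median of all genes tested. All 14 genes of the tRNA list lie to the right of 0 on the left side, where no point is filled, and 4 eIF2 points are filled on the right side.

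With miR-125b against shArid3a 1 of 83 was called (1.2%, against 1.35% of all genes), Vegfa, which fell by 1.80 on the log2 scale (adjusted p = 0.0478), a call kept in 6 of 12 alternative settings and lost with library totals alone and whichever of the 5 libraries was left out. In the libraries labelled Arid3a against LUC 0 of 78 were called by edgeR, 15 had an unadjusted p under 0.05 (21.4% of all genes did) and DESeq2 called 7. Without Arid3a replicate 1 the lists held 23 calls, 17 higher and 6 lower. With all libraries the enzymes of serine, glycine, proline and one-carbon metabolism had a negative value in 10 of 10, with a median of -0.16. Without Arid3a replicate 2 the median was -0.05 with 3 positive of 10, without LUC replicate 1 3 of 11 were positive, and with library totals alone 2 of 10. In the same comparison Shmt2, the mitochondrial serine hydroxymethyltransferase, gave -0.32 (adjusted p = 0.0977). The arginine carrier Slc7a1 gave 0.46 (adjusted p = 0.0944) and Atf6 0.39 (adjusted p = 0.0889).

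The mean log2 CPM of the 10 genes ran from 5.82 in the miR-125b library of replicate 3 to 6.17 in the sh-ctrl library of replicate 2 within the hairpin table. The 3 sh-ctrl libraries, from 5.87 upward, overlapped both other groups, while both shArid3a libraries (6.16 and 6.10) lay above the 3 of miR-125b. Of 8566 other genes, those that followed this mean most closely over the 8 hairpin-table libraries were Eme1, Mmgt1, Gm3756, Dhx38 and Tmcc1, with Pearson r of 0.95, 0.95, 0.94, 0.93 and 0.92. Over the 6 libraries of the overexpression table their r was -0.73, 0.08, 0.54, -0.83 and 0.03. These are descriptions over libraries that share their groups and scaling.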

How the data were processed

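The values are raw counts per gene that the authors deposited in 3 tables. The submitters' processing notes name fastp, HISAT2 2.0.5, featureCounts and mm10; strand use is not given in the sources used here. Tables were joined by Ensembl gene ID, because symbols in the hairpin table are partly altered. Gene positions and lengths are those of the WT table. The 10 genes, the pathway lists and the marker lists were chosen with earlier results of these data known.

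Each Gata1s table was fitted whole with edgeR 4.0.16 in R 4.3.3 (filterByExpr, TMM, quasi-likelihood test, Benjamini-Hochberg adjustment, threshold 0.05), without a replicate block; groups of one table shared the estimate of spread. The fits were tested on simulated data. Alternatives were library totals, RLE factors, DESeq2 1.42.0, no filter, a replicate block, the compared groups alone, no ribosomal RNA-like genes, and leaving out each library. Named genes are the 10, the 4 list genes with the lowest adjusted p per list and comparison, called list genes up to 6 per list, Arid3a and Gata1 as label checks, and the 5 genes most like the mean. Within each group no library was a copy of another, and libraries of different groups were not compared in this way.

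Pairing was looked at by correlating deviations from group means. For miR-125b with sh-ctrl, same-numbered libraries gave 0.43, 0.15 and 0.29, and unlike-numbered ones -0.36 to 0.21. For the libraries labelled Arid3a with LUC, same-numbered libraries gave 0.16, 0.36 and 0.01, and unlike-numbered ones -0.34 to 0.20. For shArid3a with sh-ctrl, same-numbered libraries gave 0.43 and 0.16, and unlike-numbered ones -0.43 to 0.36. For miR-125b with shArid3a, same-numbered libraries gave 0.23 and 0.20, and unlike-numbered ones -0.23 to 0.12. The 2 shArid3a libraries deviate from their mean by opposite amounts, so each value with one has a counterpart of opposite sign with the other. The ranges overlap for miR-125b with sh-ctrl, for Arid3a with LUC and for shArid3a with sh-ctrl. They do not for miR-125b with shArid3a, where the mirrored values limit what this shows. The labels do not say what libraries of one number share, so pairing was not settled. Promoter and microRNA sequences are from RefSeq. Seed matches in 3′ UTRs are not reported here.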

Additional observations from a re-analysis of the deposited data

How the results depend on the processing

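Of 490 refitted differences of the 10 genes, 437 kept their direction and their side of the threshold, 22 newly passed it, 3 lost it (all Phgdh in miR-125b against sh-ctrl) and 28 changed sign, none of these past the threshold. The cause of these changes was not tested unless a setting's own construction shows it.

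Of the 10 genes, DESeq2 called 1 in the libraries labelled Arid3a against LUC, 1 in shArid3a against sh-ctrl, 2 in miR-125b against sh-ctrl and 3 in miR-125b against shArid3a, where edgeR called 0, 0, 1 and 0. Without the low-count filter 3 were called in shArid3a against sh-ctrl and 2 in miR-125b against shArid3a, and with library totals 2 in miR-125b against sh-ctrl. Leaving out each library gave 0 to 4, 0 to 0, 0 to 1 and 0 to 2 in that order of comparisons. Over all genes, where the counts were 0, 12, 3414 and 189, DESeq2 called 1201, 1326, 4220 and 741, no filter gave 71 in the first, 1237 in the second and 715 in the last, library totals gave 20 and leaving out ribosomal RNA-like genes 0 in the second, and leaving out each library gave 0 to 3198, 2 to 11, 734 to 2872 and 12 to 329. The 3198 came without Arid3a replicate 1, the 2 and the 734 without sh-ctrl replicate 3, the 12 without shArid3a replicate 1 and the 329 without miR-125b replicate 1. With library totals the share of higher calls in miR-125b against sh-ctrl went from 49.8% to 26.6%, and in shArid3a against sh-ctrl from 58.3% to 40%.

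The replicate block gave 3 calls among the 10 genes in miR-125b against sh-ctrl (Phgdh, Chac1 and Slc7a11). In miR-125b against shArid3a it gave 1 call (Trib3, -0.99, adjusted p = 0.0237), and the 0 of both other comparisons did not change. The share of all genes called with the block is not given here, so these counts have no background beside them. With the block Chac1 and Sesn2 in the libraries labelled Arid3a against LUC went to -0.000545 and -1.76e-06.

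Signs turned with library totals for Ddit3 in shArid3a (-0.18) and Atf4 in miR-125b (-0.14), each against sh-ctrl, and Psat1 in miR-125b against sh-ctrl turned with RLE factors (0.0097), DESeq2 (0.0089) and no filter (0.00031). Leaving out each library turned Chac1 (-0.52 to 0.51), Sesn2 (-0.081 to 0.18) and Arid3a (-0.019 to 0.21) in the libraries labelled Arid3a, Ddit3 (-0.19 to 0.21) and Chac1 (-0.018 to 0.49) in shArid3a against sh-ctrl, Atf4 (-0.052 to 0.16), Asns (-0.22 to 0.11), Psat1 (-0.19 to 0.10) and Ddit4 (-0.53 to 0.055) in miR-125b against sh-ctrl, and Phgdh (-0.17 to 0.25) and Slc7a11 (-0.41 to 0.21) in miR-125b against shArid3a. Where an arm was left with 1 library, that library was assumed to vary like the other groups. Of 60 group means, 18 moved by more than 1 SD with library totals. Depth limits genes at a few CPM or less, such as Chac1, Cbs and Nupr1, and the shArid3a group has 2 libraries.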
